A study of Mus musculus with 40 samples.

Results

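Basement membranes are thin sheets of extracellular matrix, and 10 genes for their chains were examined in mouse liver: Col4a1, Col4a2, Col15a1, Col18a1, Lama2, Lamb1, Lamc1, Nid1, Nid2 and Hspg2. They were taken by gene symbol from the 24499 genes in the count table of each library, so the choice used no measured value, although it was made with earlier results of these data known. All 10 passed the filter on low counts and were among the 14355 genes tested.

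In a basement membrane, laminin trimers of an alpha, a beta and a gamma chain form a first network on cell surfaces, and type IV collagen trimers form a second, crosslinked one. Nidogens and the heparan sulfate proteoglycan perlecan, encoded by Hspg2, link the networks, while collagens XV and XVIII join them to the underlying matrix. In healthy liver, sinusoids lack the continuous basement membrane of ordinary capillaries, bile ducts and larger vessels rest on one, and its deposition along sinusoids is a textbook feature of fibrosis.

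The study modelled acute-on-chronic alcoholic hepatitis in adult male C57BL/6 mice. Messenger RNA sequencing of total liver RNA gave 40 libraries in 8 groups, each with a number of its own in the labels and so treated as separate animals. Mice were first fed either BD or 0.05% w/w 3,5-diethoxycarbonyl-1,4-dihydrocollidine (DDC), which injures bile ducts and brings on fibrosis. The length of that feeding and the age of the mice are not given in the sources read. Control 0D (BD, n = 4) and DDC 0D (DDC, n = 4) had no second treatment. After BD, a second treatment with BD, HFD, or HFD and ethanol gave Control 28D (5 libraries), HFD (6 libraries) and EtOH (4 libraries). After DDC, the same second treatments gave DDC+Cont (5 libraries), DDC+HFD (6 libraries) and DDC+EtOH (6 libraries). Ethanol ran through a surgically placed stomach tube, always with HFD, for at most 28 days and with a daily dose of at most 27 g per kg. What BD and HFD stand for is not written out in the labels.

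Reads counted on genes numbered 7197939 to 26398061 per library. Single-library counts of the 10 genes ran from 54 (Lama2 in an HFD library) to 17194 (Col18a1), so counting error was widest for Lama2. TMM scaling factors were 1.22 to 1.23 in DDC 0D and 0.942 to 0.989 in Control 0D. Transcripts of 8 pancreatic enzymes summed to more than 1000 CPM in 7 libraries (1 DDC+Cont, 1 HFD, 3 DDC+HFD and 2 DDC+EtOH). Hepatocyte markers such as albumin summed to 63697 to 127029 CPM, as the labelled tissue would give. Levels are given as CPM, the read count of a gene scaled to a common library total, with TMM factors applied to the totals.

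Compared per kilobase of exon (GENCODE vM21), the 10 transcripts differed widely in the liver of Control 0D mice. Col18a1, the gene for collagen XVIII, which carries the endostatin fragment and is made by hepatocytes, stood at 116 ± 4.41 CPM per kb (SD, n = 4) by this measure. Col4a1, a chain of the collagen IV trimer found in most basement membranes, came next at 8.68 CPM per kb. Lama2, the laminin alpha 2 chain known best from muscle and nerve, was lowest at 0.399 CPM per kb. Col18a1 was first and Lama2 last in DDC 0D as well, at 64.8 and 1.86 CPM per kb.

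Col4a1 and Col4a2 lie head to head on chromosome 8, and their shared promoter is shown for that reason. This pair was called together, in the same direction, wherever either was called in the fit of all 40 libraries. Lamc1, on chromosome 1, had the same calls in the same directions, so shared calls were not particular to this pair. Any part of the promoter in these calls was not tested. In GENCODE vM21 (GRCm38), Col4a1 spans 11198423 to 11312826 on the minus strand and Col4a2 spans 11312805 to 11449287 on the plus strand. Their annotated start sites are 21 bases apart, and their first exons share 22 bases on opposite strands. The RefSeq promoter windows (GRCm38.p6, 250 bases before to 50 after each start, 5′ to 3′ on each gene's own strand) lie at chr8:11312777-11313076 (minus) and chr8:11312555-11312854 (plus). Capitals mark the 78 bases that both windows hold, read on opposite strands.
Col4a1: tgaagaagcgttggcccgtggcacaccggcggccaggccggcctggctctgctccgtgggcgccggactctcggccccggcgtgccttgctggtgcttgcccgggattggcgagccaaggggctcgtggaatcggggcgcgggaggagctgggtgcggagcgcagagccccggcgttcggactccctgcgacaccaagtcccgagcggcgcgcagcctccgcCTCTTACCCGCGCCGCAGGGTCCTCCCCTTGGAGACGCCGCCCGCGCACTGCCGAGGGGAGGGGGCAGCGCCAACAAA
Col4a2: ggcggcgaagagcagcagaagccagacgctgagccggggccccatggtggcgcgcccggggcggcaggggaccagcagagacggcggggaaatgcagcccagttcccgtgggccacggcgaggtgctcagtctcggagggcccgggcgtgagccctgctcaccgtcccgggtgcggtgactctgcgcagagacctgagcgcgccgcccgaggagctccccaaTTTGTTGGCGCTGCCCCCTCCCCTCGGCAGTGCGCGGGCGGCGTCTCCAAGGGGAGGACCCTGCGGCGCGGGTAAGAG

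These windows hold no TATAAA, 1 CCAAT each, and 1 (Col4a1) or 3 (Col4a2) matches to GGGCGG, counted on both strands. RefSeq windows were present for 8 of the 10 genes, 9 windows in all because Col18a1 has 2. GGGCGG was found in 7 of the 9 (35.7% of 32851 mouse promoter windows), CCAAT in 5 (37.4%) and TATAAA in 0 (13.6%). The 1 GGGCGG match of Col4a1 lies in the bases that the Col4a2 window also holds, so this site was counted for both windows. These matches describe letters in a window and are not evidence of a binding site.

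**Figure D1:**
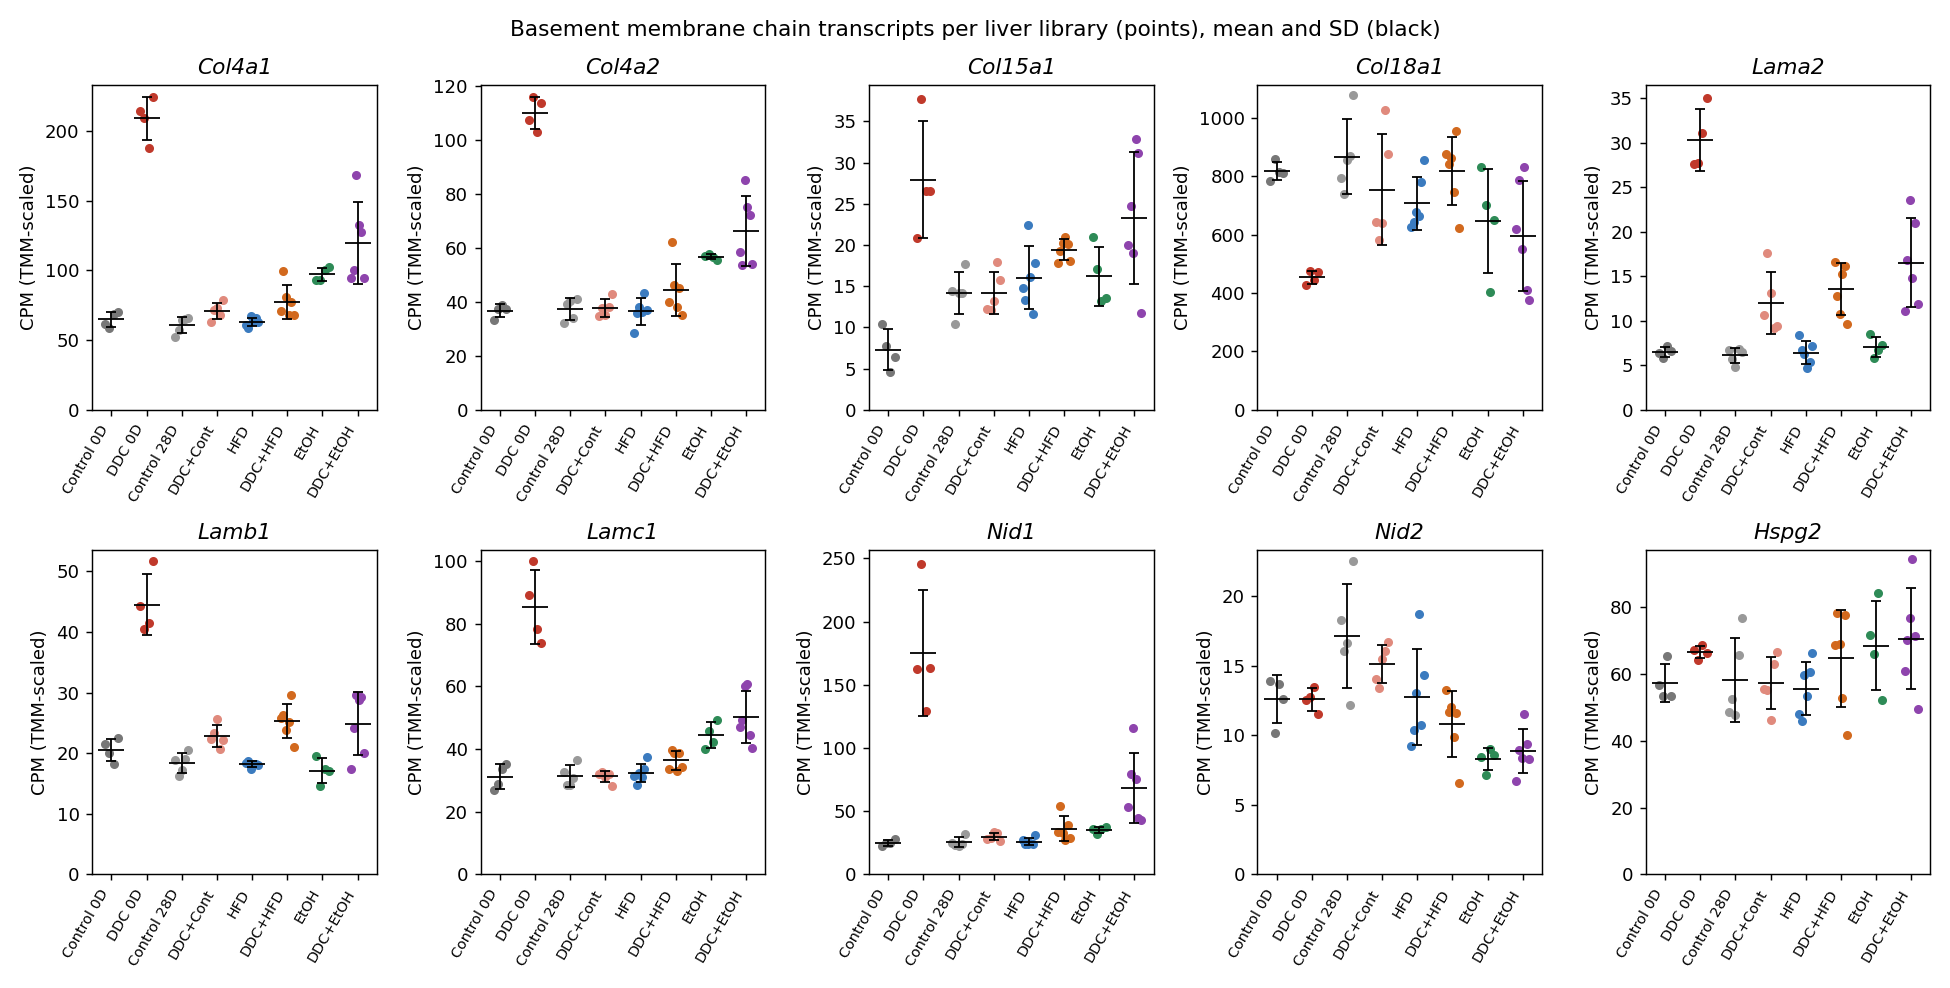
Level of each of the 10 transcripts in CPM (linear axes from 0) in every library, by group, with the group mean and SD in black. DDC 0D stands above every other group for Col4a1, Col4a2, Lama2, Lamb1, Lamc1 and Nid1, and is the group with the lowest mean for Col18a1. The share of all tested genes that stand apart in this way was not counted.

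DDC feeding against its same-stage control asked which chains change in the injured liver. In DDC 0D against Control 0D, 7 of the 10 transcripts rose (Col4a1, Col4a2, Col15a1, Lama2, Lamb1, Lamc1 and Nid1), 1 fell (Col18a1), and Nid2 and Hspg2 were not called at an adjusted p under 0.05. In the background of all tested genes, 27.5% were called higher and 24.5% lower. The median log2 fold change of the 10 was 1.52, beside 0.01 for all tested genes. Since whole liver was read, more cells that make a transcript cannot be told apart from more transcript per cell.

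The collagen IV pair rose about equally. Col4a1 was at 61.7, 58.8, 68.7 and 70.0 CPM in the Control 0D libraries and at 214, 209, 188 and 224 CPM in the DDC 0D libraries. Every DDC 0D library lay above every control, with a log2 fold change of 1.69 ± 0.13 (SE; edgeR quasi-likelihood test, adjusted p = 4.26e-13). Col4a2, the partner chain in the same trimer, went from 33.4 to 38.9 CPM across Control 0D to 103 to 116 CPM across DDC 0D, a log2 fold change of 1.58 ± 0.14 (edgeR adjusted p = 4.59e-12).

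All 3 laminin chains rose, the alpha chain most. Lama2 was at 6.39, 5.87, 7.16 and 6.65 CPM in Control 0D and at 27.7, 27.7, 31.1 and 35.0 CPM in DDC 0D. The groups did not overlap, as held for 26.0% of tested genes in the higher direction, and the log2 fold change was 2.22 ± 0.21 (edgeR adjusted p = 4.85e-11). Lamc1, the gamma 1 chain shared by most laminins, went from 31.2 ± 3.95 to 85.3 ± 11.7 CPM (SD, n = 4 each) with a log2 fold change of 1.45 ± 0.11 (edgeR adjusted p = 6.81e-13). Lamb1, the beta 1 chain, had a smaller change, from 20.6 ± 1.83 to 44.5 ± 5.07 CPM (log2 fold change 1.11 ± 0.12, edgeR adjusted p = 1.25e-09).

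The nidogens, both linkers between the laminin and collagen IV networks, differed from each other. Nid1 was at 22.3, 24.6, 25.0 and 27.8 CPM in Control 0D and at 162, 246, 129 and 163 CPM in DDC 0D. Its log2 fold change of 2.81 ± 0.23 (edgeR adjusted p = 2.13e-12) was the largest of the 10, and no libraries of the groups overlapped. Nid2 was at 13.9, 10.2, 13.7 and 12.6 CPM in Control 0D and at 12.6, 12.7, 13.5 and 11.5 CPM in DDC 0D. The groups overlapped fully, and the difference was within its error (log2 fold change -0.00 ± 0.18, edgeR adjusted p = 0.996). Exons of Nid2 share 437 bases (8.45% of its exon length) with the opposite-strand gene Rtraf, and whether the counting used strand is not stated.

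Of perlecan and collagens XV and XVIII, Col15a1 rose and Col18a1 fell. Col15a1, the chain of collagen XV, was at 10.4, 7.72, 4.60 and 6.44 CPM in Control 0D and at 20.8, 37.8, 26.6 and 26.6 CPM in DDC 0D (log2 fold change 1.95 ± 0.24, edgeR adjusted p = 2.52e-08). Col18a1 was at 784, 858, 815 and 810 CPM in Control 0D and at 428, 474, 445 and 472 CPM in DDC 0D. The highest DDC 0D library was far below the lowest control, as held for 23.8% of tested genes in the lower direction, and the log2 fold change was -0.85 ± 0.20 (edgeR adjusted p = 0.000481). Hspg2 was at 53.3 to 65.4 CPM in Control 0D and at 64.2 to 68.5 CPM in DDC 0D (log2 fold change 0.22 ± 0.17, edgeR adjusted p = 0.304). It was called with only the 8 libraries of these groups in the fit, at an adjusted p of 0.0332.

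The makeup of the set changed with these moves. Col18a1 took 75.7 ± 1.35% of the summed CPM of the 10 in Control 0D and 37.5 ± 1.73% in DDC 0D (SD, n = 4 each). The other 9 summed to 262 ± 14.0 CPM in Control 0D and to 761 ± 71.9 CPM in DDC 0D. These shares are of reads and were not corrected for transcript length.

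Markers of other cell types moved beside these transcripts. The 9 myofibroblast markers all rose, their sum going from 76.0 to 105 CPM across Control 0D to 764 to 993 CPM across DDC 0D. The 9 bile duct markers also all rose, from 94.3 to 118 CPM up to 1015 to 1169 CPM, and 7 of 8 macrophage markers rose. Of 8 hepatocyte markers 6 fell and 1 rose, with sums of 93094 to 100931 CPM in Control 0D and 63697 to 78078 CPM in DDC 0D. Sinusoidal endothelial markers (4 of 9 lower) summed to 494 to 544 and 443 to 485 CPM. None of these markers was at 0 in every library of either group. Their part in the rise of 7 chains and the fall of Col18a1 was not tested.

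Lane was shared by control and DDC 0D libraries in 2 lanes. Each of these lanes held 1 library of either group. For the 8 called genes the groups did not overlap (26.0% of tested genes higher in this way, 23.8% lower). Their direction within a lane was therefore fixed beforehand and is no separate check on lane. The within-lane log2 differences were 2.87 to 3.32 for Nid1 and -0.86 to -0.73 for Col18a1.

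Other genes of the pathway were counted from lists that were also chosen with earlier results known. Of 14 other basement membrane chains, 9 rose and 2 fell in DDC 0D (median log2 fold change 0.72). Lama5 (2.48 ± 0.22), a laminin chain of epithelial membranes, rose, as did the collagen IV chains Col4a5 (2.90 ± 0.25) and Col4a6 (2.97 ± 0.36). The chains that fell were Lama3 (-2.14 ± 0.30), an alpha chain of epithelial laminin, and Lamc3 (-0.77 ± 0.31).

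Of 15 tested proteins that associate with basement membranes, 9 rose and 1 fell (median 1.50). Sparc (1.90 ± 0.16), a collagen-binding protein, Fbln2 (1.96 ± 0.24), a fibulin that binds nidogen and laminin, Ltbp1 (1.99 ± 0.20), which tethers latent TGF-beta, and Frem1 (2.30 ± 0.28) rose, while Fras1 fell by 1.26 on the log2 scale. Of 16 receptors, 8 rose and 3 fell (median 0.46). Ddr1 (4.22 ± 0.34), a receptor tyrosine kinase for collagen, Itga2 (3.86 ± 0.31), Itga6 (2.43 ± 0.20) and Bcam (1.75 ± 0.18), a laminin receptor, rose. Itga7 (-0.78 ± 0.11) and the syndecans Sdc2 (-1.07 ± 0.13) and Sdc4 (-1.06 ± 0.16) fell.

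Genes that fold, modify and crosslink collagen IV were called higher in 7 of 13 cases and lower in 0 (median 0.33). They were led by Plod2 (3.00 ± 0.23), a collagen lysyl hydroxylase, Loxl2 (2.48 ± 0.20), which crosslinks collagen IV, Colgalt1 (0.74 ± 0.07) and the collagen chaperone Serpinh1 (1.49 ± 0.20). All 10 proteases that cut basement membrane were called, 9 higher and 1 lower (median 2.07). Mmp2 (3.09 ± 0.26), a gelatinase active on collagen IV, Mmp7 (6.94 ± 0.60) and the membrane-bound Mmp14 (1.38 ± 0.15) rose. Bmp1, the protease that trims procollagens and laminins, fell by 0.92 on the log2 scale. Each value in these paragraphs is a log2 fold change ± SE, all with an edgeR adjusted p under 0.05.

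**Figure D2:**
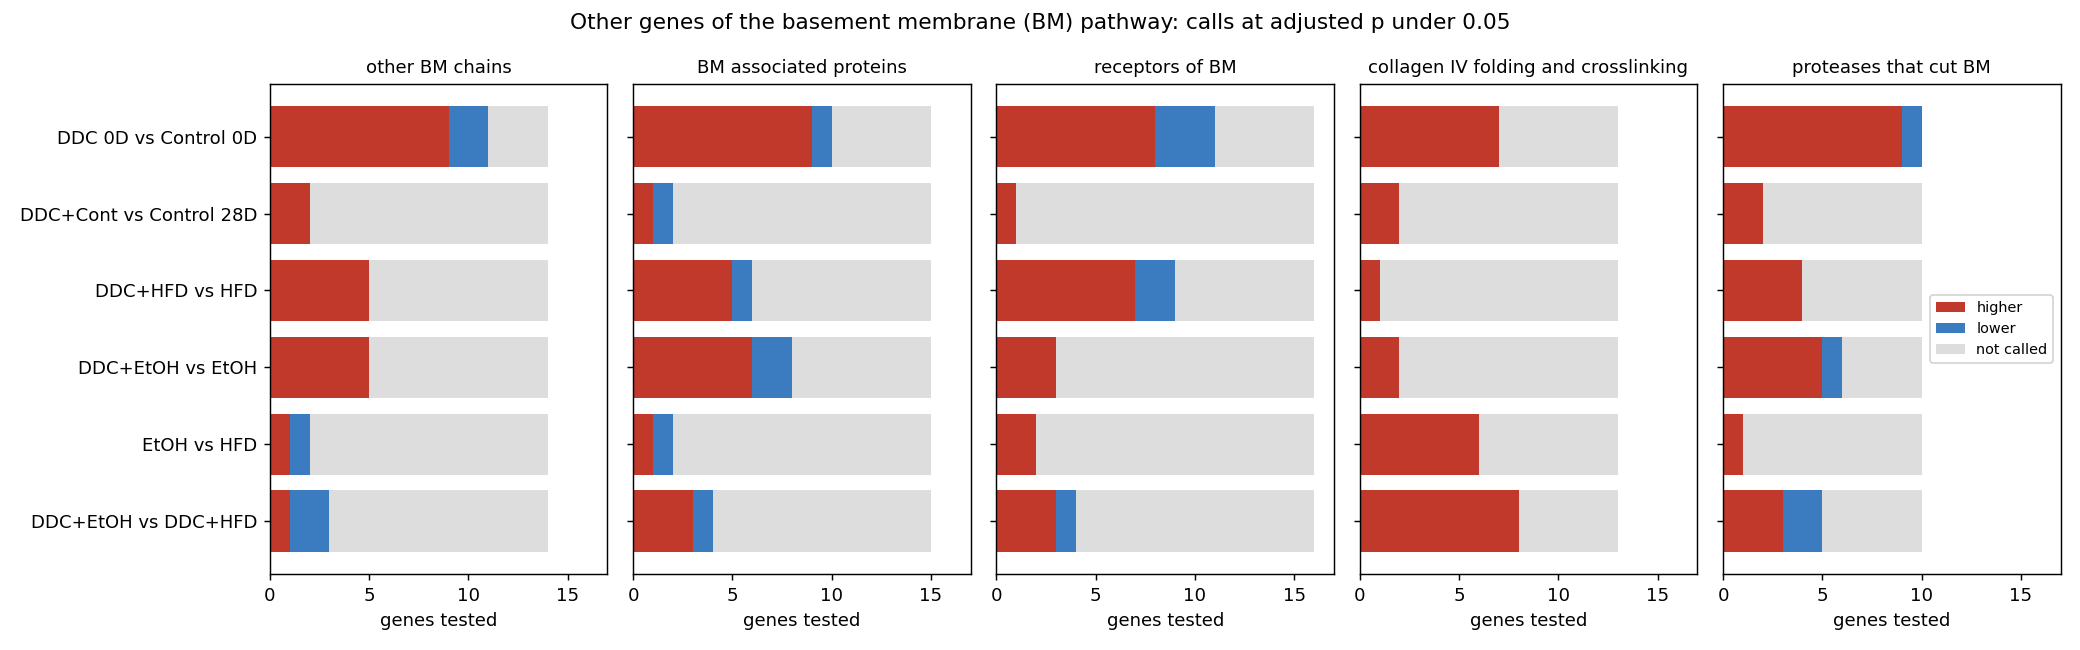
Number of genes called higher (red), lower (blue) or not called (grey) at an edgeR adjusted p under 0.05 in 5 lists of other basement membrane (BM) genes, for 6 comparisons. DDC 0D has the most calls in 4 of the lists, and the folding and crosslinking list has 7 genes higher there and 6 and 8 in the ethanol comparisons.

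Recovery was asked with mice that returned to BD after DDC. In DDC+Cont against Control 28D, 1 of the 10 transcripts was called, Lama2, against a background of 1.23% of genes higher and 0.286% lower. The median log2 fold change of the 10 was 0.01, beside -0.01 for all genes. The DDC effect was smaller after recovery than at 0D, by the test of that difference, for 7 of the 10. Of all tested genes, 17.6% were called lower and 14.5% higher by that test.

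Lama2 was at 6.71, 5.66, 4.80, 6.84 and 6.53 CPM in Control 28D and at 10.6, 17.6, 13.1, 9.18 and 9.42 CPM in DDC+Cont. The groups did not overlap (2.35% of genes in this direction), and the log2 fold change was 0.99 ± 0.19 (edgeR adjusted p = 0.00259). Lamb1 did not overlap either, at 16.2 to 20.5 CPM in Control 28D and 20.8 to 25.7 CPM in DDC+Cont, but it missed the threshold (0.31 ± 0.11, edgeR adjusted p = 0.179). Within each of 4 lanes that both groups shared, Lama2 and Lamb1 were higher in DDC+Cont, which the lack of overlap had fixed beforehand.

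Nid1, Col4a1 and Col18a1 did not pass the test here. Nid1 was at 24.9, 23.4, 22.6, 23.8 and 32.4 CPM in Control 28D and at 28.3, 29.1, 33.7, 32.6 and 26.2 CPM in DDC+Cont. The ranges overlapped, with a log2 fold change of 0.24 ± 0.20 (edgeR adjusted p = 0.721). Col4a1 was at 52.2 to 65.8 CPM in Control 28D and at 63.0 to 79.1 CPM in DDC+Cont (0.22 ± 0.11, edgeR adjusted p = 0.464). Col18a1, which had fallen in DDC 0D, was at 740 to 1078 CPM in Control 28D and 580 to 1028 CPM in DDC+Cont (-0.20 ± 0.18, edgeR adjusted p = 0.742).

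The difference between the DDC effects (after recovery minus at 0D) was -2.57 ± 0.29 for Nid1 (edgeR adjusted p = 3.74e-08) and -1.95 ± 0.32 for Col15a1 (edgeR adjusted p = 1.55e-05). It was smallest among the 7 called for Lamb1 (-0.80 ± 0.16, edgeR adjusted p = 0.000254) and Lama2 (-1.23 ± 0.28, edgeR adjusted p = 0.00086). For Col18a1 it was 0.64 ± 0.26 and missed the threshold (edgeR adjusted p = 0.0595); it was called in 3 of 7 other settings, with adjusted p from 0.014 to 0.0634. Set directly against DDC 0D, DDC+Cont was lower for the same 7 genes and higher for Col18a1 (0.73 ± 0.19, edgeR adjusted p = 0.00192), with 23.2% of genes lower and 20.2% higher. These comparisons share the DDC 0D and DDC+Cont libraries and are not independent.

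The control groups themselves differed in 1 of the 10. Col15a1 was at 10.4, 7.72, 4.60 and 6.44 CPM in Control 0D and at 14.5, 10.4, 14.2, 14.1 and 17.7 CPM in Control 28D (0.97 ± 0.23, edgeR adjusted p = 0.0171; 1.62% of genes called higher and 0.836% lower). The ranges touched at the highest Control 0D and lowest Control 28D library. Without Control 0D replicate 2, 3 or 4, or without Control 28D replicate 13, the adjusted p was 0.0517, 0.0965, 0.076 or 0.0576. So the smaller Col15a1 effect after recovery was read against a control that was higher at 28D than at 0D.

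**Figure D3:**
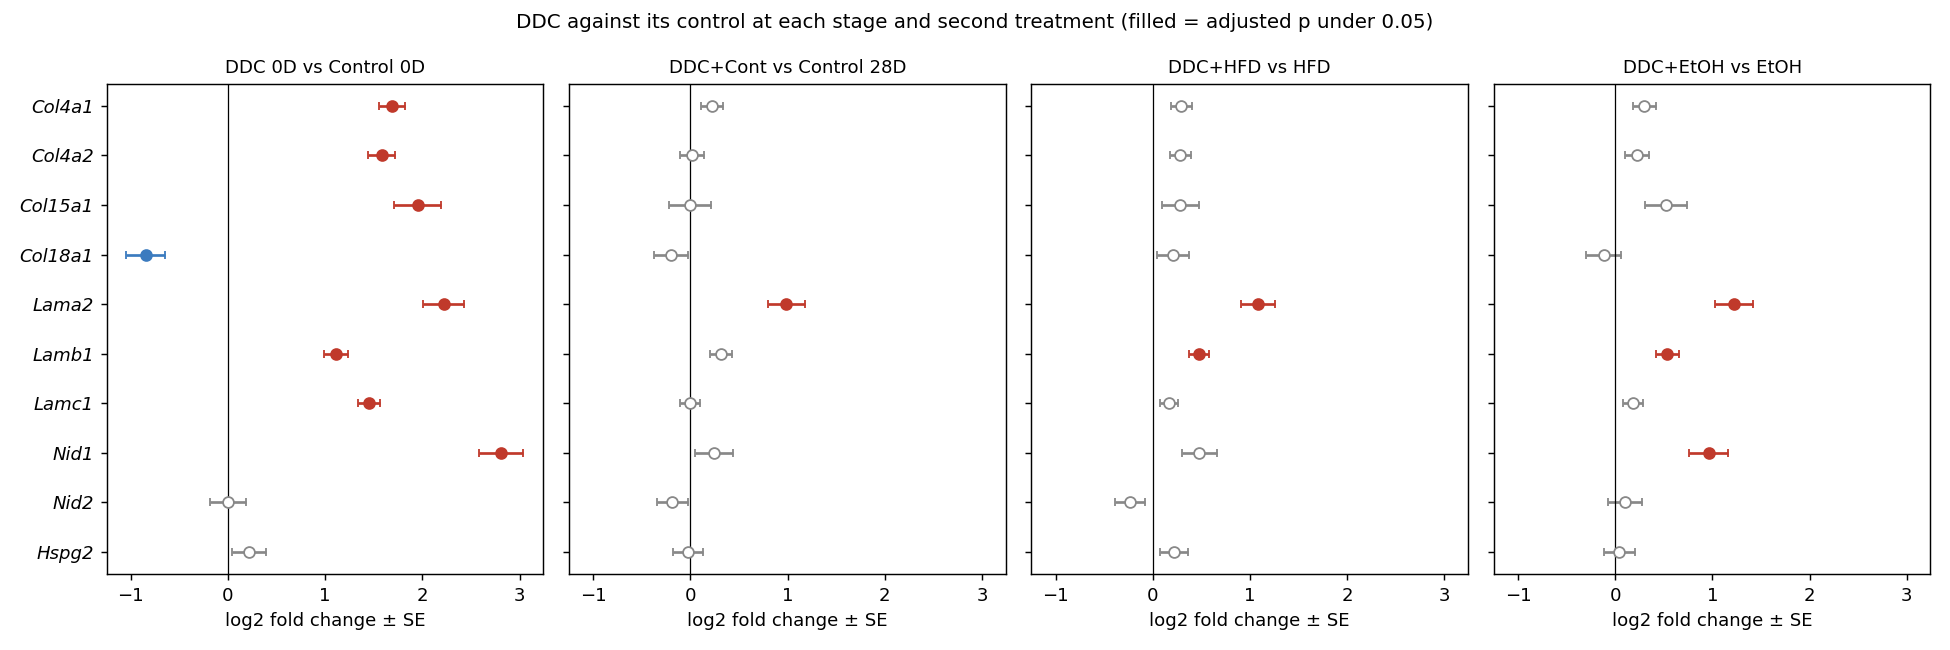
Log2 fold change ± SE of each transcript for DDC against its own control in 4 settings, with filled markers (red higher, blue lower) at an edgeR adjusted p under 0.05 and open markers otherwise. DDC 0D has 8 filled markers, DDC+Cont has 1 (Lama2), and Lama2 is filled in all 4.

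Earlier DDC was also compared under the other second treatments, each pair with its own controls. In DDC+HFD against HFD, 2 of the 10 were called, both higher (Lama2 and Lamb1; 7.96% of genes higher, 5.49% lower). In DDC+EtOH against EtOH, 3 were called, all higher (Lama2, Lamb1 and Nid1; 4.12% of genes higher, 2.57% lower). The laminin alpha 2 chain was the transcript of the 10 called in all 4 DDC comparisons.

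Lama2 in HFD libraries had a lowest value of 4.65, a median of 6.48 and a highest of 8.41 CPM, and in DDC+HFD 9.64, 14.0 and 16.6 CPM. The groups did not overlap (2.60% of genes higher in this way), with a log2 fold change of 1.08 ± 0.18 (edgeR adjusted p = 7.16e-05). In EtOH libraries it was at 8.49, 5.86, 6.66 and 7.30 CPM, and in DDC+EtOH the lowest, median and highest were 11.1, 15.8 and 23.5 CPM. These groups did not overlap either (3.29% of genes), with a log2 fold change of 1.22 ± 0.20 (edgeR adjusted p = 0.000119).

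Across the series, the 21 libraries from mice given DDC had Lama2 at 9.18 to 35.0 CPM and the 19 others at 4.65 to 8.49 CPM. The ranges of these pooled groups do not meet, which held for 30 of the 14355 genes tested (0.209%) in this direction. With the 0D groups left aside, the 17 DDC libraries had 9.18 to 23.5 CPM and the 15 others 4.65 to 8.49 CPM, a separation that 33 genes (0.230%) had. Exons of Lama2 share 631 bases (3.86%) with the opposite-strand gene Gm48084. Myofibroblast marker sums were 130 to 205 CPM in DDC+Cont against 79.6 to 103 CPM in Control 28D, without overlap. They overlapped between DDC+HFD (86.7 to 195 CPM) and HFD (69.3 to 155 CPM). The same held between DDC+EtOH (126 to 408 CPM) and EtOH (104 to 169 CPM). Bile duct marker sums did not overlap in any of these pairs. They were 149 to 227 CPM in DDC+Cont and 102 to 144 CPM in Control 28D. In DDC+HFD and HFD they were 188 to 297 and 91.2 to 138 CPM. In DDC+EtOH and EtOH they were 126 to 266 and 81.1 to 94.0 CPM. Of the 9 myofibroblast markers, 1, 2 and 2 were called higher in these pairs, in that order. Of the 9 bile duct markers, 3, 6 and 5 were called higher. On both lists 0 were called lower, and 1.23%, 7.96% and 4.12% of all tested genes were called higher. The part of either cell type in the Lama2 values was not tested.

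Lamb1 separated HFD (lowest 17.4, median 18.2, highest 18.8 CPM) from DDC+HFD (21.0, 25.5 and 29.5 CPM) with no overlap. The log2 fold change was 0.47 ± 0.10 (edgeR adjusted p = 0.0018). Within each of 4 shared lanes Lamb1 was higher in DDC+HFD, which the lack of overlap had fixed beforehand. Against EtOH (19.5, 14.6, 17.4 and 17.0 CPM), DDC+EtOH had 17.5, 26.4 and 29.6 CPM (0.54 ± 0.11, edgeR adjusted p = 0.00282), and 1 library fell within the EtOH range. Nid1 was at 35.9, 31.8, 35.9 and 37.2 CPM in EtOH and at 43.3, 64.4 and 116 CPM (lowest, median, highest) in DDC+EtOH (0.96 ± 0.20, edgeR adjusted p = 0.00255). With the fit limited to these 10 libraries, Lamb1 and Nid1 were no longer called in DDC+EtOH (adjusted p = 0.106 and 0.0845).

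In the same comparisons, Col4a1 was near the threshold in DDC+HFD against HFD (0.29 ± 0.10, edgeR adjusted p = 0.0545). Its libraries did not overlap there, at 58.6 to 66.9 CPM in HFD and 67.7 to 99.4 CPM in DDC+HFD. Col4a2 was not called there in any of the 7 other settings, whereas Col4a1 was called with a stricter filter on low counts, with DESeq2 or with only these libraries in the fit (adjusted p = 0.0497, 0.0494 and 0.0468). Col15a1, Col18a1, Lamc1, Nid2 and Hspg2 were not called in any of the 3 comparisons of earlier DDC after a second treatment.

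HFD itself moved none of the 10 past the threshold, either without DDC (HFD against Control 28D, 0.216% of genes higher and 0.160% lower) or after it (DDC+HFD against DDC+Cont, 1.87% and 1.53%). At an unadjusted p under 0.05 there were 1 and 3 of the 10, beside 1312 and 2653 of the 14355 genes tested. DESeq2 also called 0 of the 10 in each. Nid2 had the lowest p in both, with log2 fold changes of -0.44 ± 0.16 (edgeR adjusted p = 0.296) and -0.49 ± 0.16 (edgeR adjusted p = 0.0726). Without the 7 libraries over 1000 CPM of pancreatic enzymes, Nid2 was called lower in DDC+HFD than in DDC+Cont (log2 fold change -0.72, edgeR adjusted p = 0.0258). That fit left out 3 of the 6 DDC+HFD libraries. It kept DDC+HFD replicate 37, with 314 CPM of these enzymes and the lowest Nid2 of its group (6.54 CPM).

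Ethanol was always given with HFD, so its effect was read against HFD. Without DDC, Col4a1, Col4a2 and Lamc1 rose and Nid2 fell in EtOH against HFD, 3 higher and 1 lower of the 10 (7.84% of genes higher, 5.61% lower). After DDC, Col4a1, Col4a2, Lamc1 and Nid1 rose and Col18a1 fell in DDC+EtOH against DDC+HFD, 4 higher and 1 lower (8.53% and 8.02%). The medians of the 10 were 0.22 and 0.28, beside -0.00 and -0.01 for all genes. The EtOH and DDC+EtOH comparisons use different libraries. Within each of 3 shared lanes, Col4a1, Col4a2 and Lamc1 were higher with ethanol in both comparisons, Nid1 was higher in DDC+EtOH, and Nid2 was lower in EtOH. Without DDC, and for Lamc1 after it, the groups did not overlap for these genes, so these within-lane directions were fixed beforehand.

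Col4a1 had a lowest value of 58.6, a median of 63.1 and a highest of 66.9 CPM in HFD, and stood at 93.0, 93.2, 100 and 102 CPM in EtOH. The groups did not overlap (8.99% of genes higher in this way), with a log2 fold change of 0.62 ± 0.12 (edgeR adjusted p = 0.000179). After DDC it went from 67.7, 74.0 and 99.4 CPM in DDC+HFD to 94.4, 114 and 169 CPM in DDC+EtOH (0.63 ± 0.10, edgeR adjusted p = 3.56e-05). There 1 DDC+HFD library reached into the ethanol range. Col4a2 followed, with 0.64 ± 0.12 (edgeR adjusted p = 0.00028) without DDC and 0.58 ± 0.11 (edgeR adjusted p = 0.000231) after it.

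Lamc1 had 28.7, 31.9 and 37.4 CPM (lowest, median, highest) in HFD and 40.0, 45.8, 42.3 and 49.4 CPM in EtOH, with a log2 fold change of 0.45 ± 0.10 (edgeR adjusted p = 0.00199). In DDC+HFD it had 33.0, 36.5 and 39.8 CPM and in DDC+EtOH 40.4, 48.2 and 60.6 CPM (0.47 ± 0.09, edgeR adjusted p = 0.000368). No libraries overlapped in either comparison (8.99% and 2.17% of genes in this direction). Taken over the 6 groups with a second treatment, the 10 ethanol libraries lay at 40.0 CPM or more and the 22 others at 39.8 CPM or less. The gap between these pooled ranges was small, and 92 genes (0.641%) separated in this direction. The other laminin chains, Lama2 and Lamb1, were not called (0.14 ± 0.20 and -0.09 ± 0.11 without DDC, 0.29 ± 0.17 and -0.02 ± 0.10 after it).

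Nid1 and Nid2 again parted. Nid1 had 27.5, 33.1 and 54.3 CPM in DDC+HFD and 43.3, 64.4 and 116 CPM in DDC+EtOH, and rose by 0.93 ± 0.18 on the log2 scale (edgeR adjusted p = 0.000264) with some overlap. Without DDC, its EtOH libraries (31.8 to 37.2 CPM) lay just above HFD (23.8 to 30.9 CPM), and the test did not pass in the fit of all groups (0.45 ± 0.20, edgeR adjusted p = 0.135). It passed with only these libraries in the fit (adjusted p = 0.00239). Nid2 had 9.25, 11.9 and 18.7 CPM in HFD and 8.41, 7.14, 9.04 and 8.55 CPM in EtOH. The fall of Nid2 (-0.62 ± 0.17, edgeR adjusted p = 0.0125) was without overlap (6.79% of genes in this direction) but was lost without HFD replicate 17 or EtOH replicate 21 (adjusted p = 0.0514 and 0.0651). After DDC, Nid2 was at 6.54, 11.6 and 13.2 CPM in DDC+HFD and 6.74, 8.65 and 11.5 CPM in DDC+EtOH (-0.28 ± 0.15, edgeR adjusted p = 0.217).

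Col18a1 was lower in DDC+EtOH (377, 585 and 833 CPM) than in DDC+HFD (623, 853 and 954 CPM), by -0.45 ± 0.16 on the log2 scale (edgeR adjusted p = 0.0476). The ranges overlapped. The call was lost in 3 of 7 other settings (adjusted p up to 0.18) and without any one of 9 of the 12 libraries (adjusted p up to 0.121). Col18a1 made up 56.3 ± 7.52% of the summed CPM of the 10 in DDC+EtOH and 71.3 ± 2.09% in DDC+HFD (SD, n = 6 each). Col15a1 and Hspg2 were not called in either ethanol comparison.

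Whether ethanol acted differently after DDC was tested as the difference of its effects. None of the 10 was called, nor had an unadjusted p under 0.05, and edgeR called 0 of the 14355 genes (739 at an unadjusted p under 0.05, and 4 by DESeq2). The difference was 0.01 ± 0.16 for Col4a1, 0.02 ± 0.14 for Lamc1, 0.48 ± 0.27 for Nid1 and 0.34 ± 0.23 for Nid2 on the log2 scale. With errors of this size and 4 to 6 libraries a group, the test could not tell the nidogen estimates from no difference. The same test for HFD called 0 genes with edgeR (1087 at an unadjusted p under 0.05, 2 by DESeq2) and none of the 10.

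Ethanol with HFD was also set against BD. EtOH against Control 28D had 3 higher (Col4a1 0.68 ± 0.12, Col4a2 0.60 ± 0.13, Lamc1 0.50 ± 0.11) and 1 lower (Nid2 -1.06 ± 0.18), with 9.99% of genes higher and 8.20% lower. DDC+EtOH against DDC+Cont had 5 higher (Nid1 1.19 ± 0.19, Col4a2 0.81 ± 0.12, Col4a1 0.75 ± 0.11, Col15a1 0.72 ± 0.20, Lamc1 0.69 ± 0.10) and 1 lower (Nid2 -0.77 ± 0.16), with 12.4% and 11.2%. All of these had an edgeR adjusted p under 0.05. Col15a1 was no longer called in DDC+EtOH with only these groups in the fit or without the pancreatic libraries (adjusted p = 0.0527 and 0.1), and without the latter Col18a1 and Lama2 were called (adjusted p = 0.041 and 0.0318). Nid1 was called in EtOH with only these groups in the fit (adjusted p = 0.00894). Nid2 had no overlap in either (8.56% and 4.60% of genes in the lower direction), at 12.2 to 22.5 CPM in Control 28D, 13.4 to 16.7 CPM in DDC+Cont, 7.14 to 9.04 CPM in EtOH and 6.74 to 11.5 CPM in DDC+EtOH. These comparisons share the ethanol libraries with those against HFD.

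**Figure D4:**
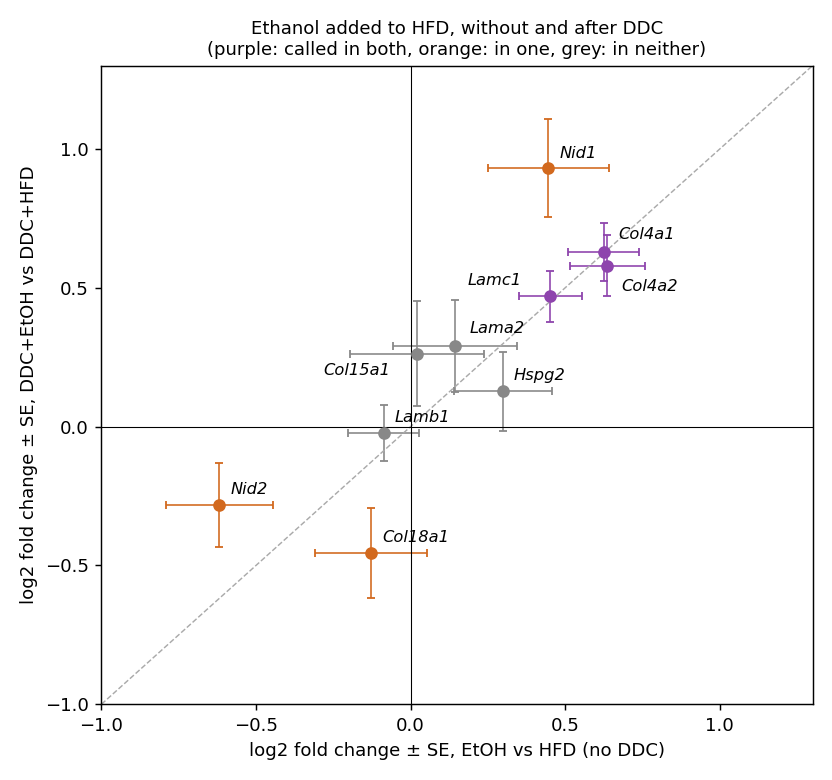
Log2 fold change ± SE of each transcript for ethanol added to HFD, without DDC on the horizontal axis and after DDC on the vertical axis, with the line of equal values dashed. Col4a1, Col4a2 and Lamc1 lie near the line at 0.45 to 0.64, Nid1 lies above it at 0.45 and 0.93, and Nid2 and Col18a1 are negative on both axes.

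Among the other genes of the pathway, those that fold and crosslink collagen IV were called most often with ethanol, 6 of 13 higher without DDC and 8 of 13 higher after it, with 0 lower in each. Loxl2 had the largest values, 1.21 ± 0.19 without DDC (6.03 ± 0.547 CPM in EtOH, n = 4, and 2.60 ± 0.483 CPM in HFD, n = 6; SD) and 1.33 ± 0.17 after it. Plod1 (0.45 ± 0.09), P4hb (0.48 ± 0.11), a subunit of prolyl 4-hydroxylase, Colgalt1 (0.31 ± 0.07), Mia3 (0.48 ± 0.12), which helps export collagen, and Pxdn (0.52 ± 0.09), the peroxidase that forms the sulfilimine bond of collagen IV, were called without DDC. The same 6 genes and Serpinh1 (0.60 ± 0.16) and P4ha2 (0.56 ± 0.12) were called after it. Of the other chains, Lama4, an endothelial laminin chain, rose without DDC (0.48 ± 0.12), Lama5 rose after DDC (0.83 ± 0.17), the collagen IV chain Col4a3 fell after DDC (-1.19 ± 0.29), and Lama3 fell in both (-0.88 ± 0.27 and -1.24 ± 0.25). Fras1 fell in both (-0.69 ± 0.15 and -0.66 ± 0.14). Sparc rose in both (0.65 ± 0.14 and 0.73 ± 0.13), as did the macrophage elastase Mmp12 (4.22 ± 0.73 and 4.00 ± 0.59). After DDC, 3 of the 10 proteases rose, Mmp12 among them. The 2 that fell were the gelatinase Mmp9 (-2.01 ± 0.45) and Bmp1 (-0.23 ± 0.07). These are log2 fold changes ± SE, with an edgeR adjusted p under 0.05.

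Markers of other cell types were also summed in the ethanol comparisons. Capillary and vascular endothelial markers summed to 190 to 210 CPM in HFD and 217 to 246 CPM in EtOH (2 of 9 higher), and to 169 to 225 and 196 to 223 CPM in DDC+HFD and DDC+EtOH (0 of 9 called). Their EtOH libraries lay above all HFD libraries, while in DDC 0D (181 to 197 CPM) the same sum overlapped Control 0D (179 to 200 CPM). Quiescent stellate cell markers had 4 of 8 higher without DDC, with sums of 306 to 340 and 344 to 396 CPM, and 3 of 8 higher after it. Myofibroblast sums were 69.3 to 155 CPM in HFD and 104 to 169 CPM in EtOH (1 of 9 higher), then 86.7 to 195 and 126 to 408 CPM after DDC (4 of 9 higher). Of 9 sinusoidal endothelial markers, 3 were higher without DDC, and 1 was higher and 1 lower after it. Their sums overlapped, at 487 to 575 CPM in HFD and 542 to 584 CPM in EtOH. Of 9 bile duct markers, 2 were lower without DDC and 0 were called after it. Of all tested genes, 7.84% were higher and 5.61% lower without DDC, and 8.53% and 8.02% after it. None of these lists had a marker at 0 in every library, and their part in the ethanol results was not tested.

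Ratios of paired chains do not depend on library scaling. Col4a1 over Col4a2 ranged from 1.46 to 2.15 over the 40 libraries (median 1.77), while Col4a1 itself ranged from 52.2 to 224 CPM. Group geometric means of this ratio ran from 1.63 in Control 28D to 1.90 in DDC 0D. Nid1 over Nid2 ranged from 1.32 to 19.3, with geometric means of 1.98 in Control 0D, 13.6 in DDC 0D, 1.98 in DDC+Cont, 4.26 in EtOH and 7.36 in DDC+EtOH. The log2 ratio was 2.09 ± 0.07 (SD, n = 4) in EtOH and 1.06 ± 0.39 (SD, n = 6) in HFD, with no overlap. Lamb1 over Lamc1 was lowest in EtOH, with a geometric mean of 0.386, and highest in DDC+Cont at 0.730.

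**Figure D5:**
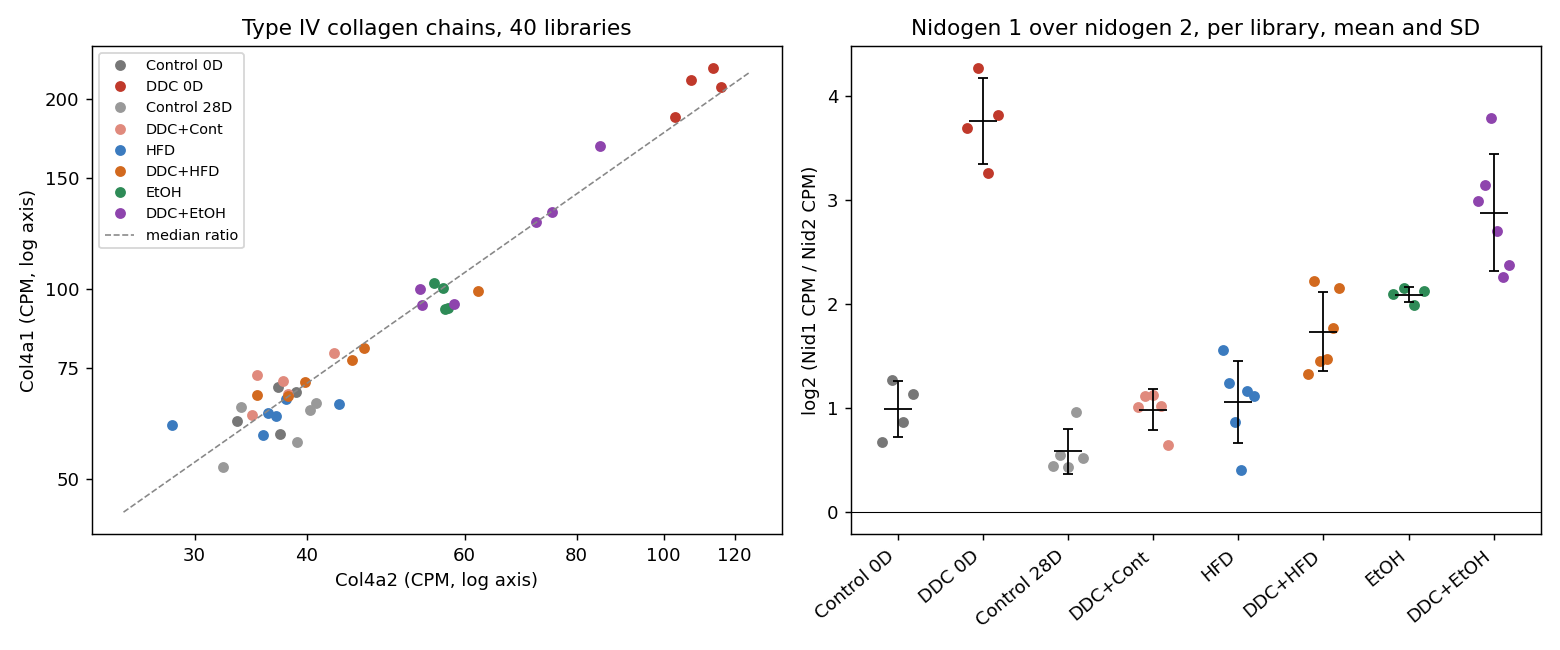
Left, Col4a1 against Col4a2 in CPM on log axes for all 40 libraries, with a dashed line at the median ratio of 1.77. Right, log2 of Nid1 over Nid2 CPM per library with group mean and SD, highest in DDC 0D (3.76) and DDC+EtOH (2.88).

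As a description, deviations from group means of log2(CPM + 1) correlated at r = 0.82 for Col4a1 and Col4a2 over 40 libraries, at 0.75 for Lamc1 and Nid1 and at 0.69 for Lama2 and Lamb1. For Col18a1 with the other 9, r lay between -0.05 and 0.50. Over the 8 group means, Col4a2 and Lamc1 had r = 0.996 and Col4a1 and Col18a1 had r = -0.94. Values of a library share its depth and scaling, and group means are dominated by DDC 0D.

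Outside the 10, the tested genes with the most similar group means were Tcf19 for Col4a1 (r = 0.998), Ptgr1 for Col4a2 (0.998), Vsig4 for Col15a1 (0.994), Sec16a for Col18a1 (0.983) and Robo2 for Lama2 (0.996), each over 8 groups. For Lamb1, Lamc1, Nid1, Nid2 and Hspg2 they were Fbxl13 (0.996), Prrg4 (0.995), F11r (0.999), Snora17 (0.996) and Atp6v0c (0.994). Within groups, over 40 deviations, Lama2 was most like Prss23 (r = 0.81), Ccdc3 (0.81) and Fstl1 (0.79). Lamb1 was most like Tbx20 (0.78), Col6a1 (0.77) and Angptl2 (0.74), and Lamc1 and Nid1 shared Coro1c as the closest gene (0.76 and 0.79).

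The order of group means put DDC 0D first for 7 of the 10. Its libraries did not overlap the next group for Col4a1, Col4a2, Lama2, Lamb1, Lamc1 and Nid1, and did for Col15a1. The share of all tested genes with such a gap was not counted, so these gaps are not read as particular to the set. Below DDC 0D, neighbouring groups overlapped everywhere except between DDC+Cont and EtOH for Lama2 and between EtOH and DDC+HFD for Lamc1. Hspg2, perlecan, showed the flattest order, from 55.6 ± 7.91 CPM in HFD (n = 6) to 70.5 ± 15.2 CPM in DDC+EtOH (n = 6), with every neighbouring pair overlapping and no call in any of the 15 comparisons.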

How the data were processed

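The authors deposited raw read counts by gene symbol in a table for each library, with 5 tallies of uncounted reads at the end. These tallies (48.2% to 59.0% of reads, multiply aligned reads among them) were left out of library sizes and tests. Per the submitters' processing notes, mm10, GSNAP and DESeq2 1.12.3 were used, in roles not stated. The counting program, annotation and use of strand are not stated either, so reads of overlapping opposite-strand genes cannot be told apart. Per the labels' protocols, total RNA of the liver was made into TruSeq mRNA libraries.

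All 40 libraries, grouped by the labels, entered 1 edgeR 4.0.16 fit (R 4.3.3) with a coefficient per group, TMM factors, the default filterByExpr (14355 of 24499 genes kept), robust quasi-likelihood F tests, two-sided, and Benjamini-Hochberg adjustment over all genes tested. A call is an adjusted p under 0.05. Differences between effects were contrasts of that fit. SE is the log2 fold change divided by the square root of F. No 2 libraries had identical counts. Nothing states outright that the libraries came from separate animals. If they did not, p-values measure only the spread between libraries. The procedure was tested on simulated data.

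All 10 genes are named. From each of 5 pathway lists, up to 4 genes with the smallest adjusted p in DDC 0D and those called lower there are named. A result that this rule would name is not reported here. Pathway genes named elsewhere were chosen after their values were seen. The genes most alike were the 3 with the highest Pearson r by each measure, predicted genes passed over, with some of these printed. The members and lists were chosen with earlier results of these data known. Alternatives were median-ratio size factors, no filter, a stricter filter (1 CPM in 4 libraries, mean count 10), sequencing lane (6 levels, from the deposited names) as a term, only the groups compared, DESeq2 1.42.0, leaving out the 7 libraries over 1000 CPM of pancreatic enzymes, and leaving out each library. Ratios were also taken on CPM plus 1.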

Additional observations from a re-analysis of the deposited data

Results flagged for a closer look

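Nid1 in Control 28D replicate 13 stood apart from its group at 32.4 CPM, with the next library at 24.9 CPM. Its gap to the others passed Dixon's 95% critical value, 1 such result among 80 groups of values examined, where chance alone gives about 1 in 20. That library was also the highest of its group for Col4a1, Col4a2, Col15a1, Col18a1, Lamb1, Lamc1, Nid2 and Hspg2.

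The DDC effect after recovery on BD differed from the effect at 0D by a test of the difference (edgeR, adjusted p under 0.05) for 7 of the 10 genes. Of all tested genes, 17.6% were called lower and 14.5% higher by this test. On the log2 scale the difference was -2.57 for Nid1, -1.95 for Col15a1, -1.57 for Col4a2, -1.47 for Col4a1, -1.46 for Lamc1, -1.23 for Lama2 and -0.80 for Lamb1. Each of these had a smaller effect after recovery, and Lama2 was the 1 of them still called there.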

How the results depend on the processing

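The 8 calls in DDC 0D held under each of the 7 other settings, as did those of Col4a1, Col4a2 and Lamc1 in both ethanol comparisons. No paired analysis was possible because each library has its own number in the labels and groups share none. Some counts of calls moved by over 1.5 times, with the reported count in parentheses. With only the groups compared they were 688 (353 as reported) for Control 28D against Control 0D, 105 (54) for HFD against Control 28D, 101 (488) for DDC+HFD against DDC+Cont, 804 (2375) for DDC+EtOH against DDC+HFD, 2000 (3388) for DDC+EtOH against DDC+Cont and 243 (960) for DDC+EtOH against EtOH. The members called were then 4 (2) for DDC+HFD against HFD and 1 (3) for DDC+EtOH against EtOH. With DESeq2 the counts of genes were 591 for the controls, 128 for HFD, and 4 and 2 for the ethanol and HFD effects after DDC minus without it (0 each). With lane as a term it was 299 for DDC+HFD against DDC+Cont. Without the pancreatic libraries they were 535 for the controls, 1275 for DDC+EtOH against DDC+HFD and 1468 for DDC+EtOH against EtOH, and 1 member (0) was called in DDC+HFD against DDC+Cont. On CPM plus 1, the log2 ratio of Nid1 over Nid2 in EtOH was 1.97 (2.09). The cause of these shifts was not tested.

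Leaving out 1 library gave 119 to 339 genes and 0 to 1 member for the controls, 129 to 247 genes for DDC+Cont against Control 28D, 25 to 73 for HFD against Control 28D, 1213 to 2174 genes and 2 to 5 members for DDC+HFD against HFD, 545 to 1477 genes and 3 to 5 members for DDC+EtOH against EtOH, and 167 to 715 genes and 0 to 1 member for DDC+HFD against DDC+Cont. Of calls for single members, 15 were lost with 1 library left out, all for Col15a1 between the controls, Nid2 in EtOH against HFD and Col18a1 in DDC+EtOH against DDC+HFD, and 19 were gained.

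Log2 fold changes that changed sign had no call in either setting. With median-ratio size factors they were 0.0035 for Nid2 in DDC 0D against Control 0D. Without a filter they were -0.012 for Lamc1 in Control 28D against Control 0D. With the stricter filter they were 0.013 for Nid2 in DDC 0D against Control 0D, 0.011 for Col15a1 in DDC+Cont against Control 28D, 0.0083 for Lamc1 in DDC+Cont against Control 28D. With lane as a term they were 0.067 for Col15a1 in DDC+Cont against Control 28D, 0.00024 for Col4a2 in HFD against Control 28D, -0.088 for Col15a1 in EtOH against HFD. With only the groups compared they were 0.012 for Nid2 in DDC 0D against Control 0D, 0.011 for Col15a1 in DDC+Cont against Control 28D, 0.010 for Lamc1 in DDC+Cont against Control 28D. With DESeq2 they were 0.0022 for Nid2 in DDC 0D against Control 0D. Without the pancreatic libraries they were 0.043 for Col15a1 in DDC+Cont against Control 28D, 0.030 for Col4a2 in HFD against Control 28D, -0.017 for Lama2 in HFD against Control 28D, -0.085 for Col18a1 in DDC+HFD against DDC+Cont, -0.0023 for Hspg2 in DDC+HFD against DDC+Cont, 0.094 for Lamb1 in DDC+EtOH against DDC+HFD, -0.032 for Hspg2 in DDC+EtOH against EtOH. With 1 library left out, uncalled values also crossed 0. In DDC 0D against Control 0D the range was -0.084 to 0.058 for Nid2. In Control 28D against Control 0D the range was -0.015 to 0.078 for Col4a2, -0.0033 to 0.14 for Col18a1, -0.050 to 0.081 for Lamc1, -0.074 to 0.091 for Nid1 and -0.093 to 0.11 for Hspg2. In DDC+Cont against Control 28D the range was -0.025 to 0.067 for Col4a2, -0.10 to 0.10 for Col15a1, -0.039 to 0.068 for Lamc1 and -0.086 to 0.11 for Hspg2. In HFD against Control 28D the range was -0.0029 to 0.085 for Col4a1, -0.089 to 0.030 for Col4a2, -0.019 to 0.14 for Lama2, -0.057 to 0.029 for Lamb1, -0.034 to 0.13 for Nid1 and -0.14 to 0.058 for Hspg2. In the HFD effect after DDC minus without it the range was -0.012 to 0.13 for Col4a1 and -0.17 to 0.087 for Nid2. In EtOH against HFD the range was -0.13 to 0.14 for Col15a1 and -0.27 to 0.025 for Col18a1. In the ethanol effect after DDC minus without it the range was -0.12 to 0.091 for Col4a1, -0.14 to 0.064 for Col4a2, -0.0051 to 0.15 for Lamb1 and -0.043 to 0.083 for Lamc1. In DDC+EtOH against EtOH the range was -0.28 to 0.034 for Col18a1 and -0.059 to 0.17 for Hspg2. In DDC+EtOH against DDC+HFD the range was -0.077 to 0.063 for Lamb1.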
